A study of Mus musculus with 64 samples.

Results

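The subject here is a set of 280 microRNA forms whose 5′ end lies 1 or more bases away from the annotated start of the microRNA. They were taken from 2181 small RNA ids listed for mouse liver or adipose tissue. A form was included when its id carries a start shift, written as mmu-mir-10b-5p_+_1, when it does not belong to let-7 or miR-98, and when its mean normalized signal was at least 100 over all libraries of the liver table or of the adipose table. The rule was met by 136 forms in liver and 250 in adipose, 106 of them in both, and they belong to 156 microRNA arms. The forms were chosen by their mean signal, so their abundance is a description and was not tested. In liver the forms nearest to the limit were miR-221-3p +1 with a mean signal of 100.5 inside it and miR-21-5p +4 with 98.0 outside it, and in adipose they were miR-425-3p −2 with 100.9 and miR-27a-3p +1 with 99.4.

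All animals were 129S6/SvEvTac mice that had received inorganic arsenic at 400 ppb for 4 weeks, so no group was without arsenic. The wild-type (WT) animals expressed the mouse As3mt gene and the humanized animals the human ortholog AS3MT, an enzyme that methylates arsenic. Liver small RNA came from 5 WT females (WTF), 5 WT males (WTM), 5 humanized females (HUMF) and 6 humanized males (HUMM), and adipose small RNA from 5, 4, 6 and 5 libraries of the same groups. The labels give no ages, do not say whether the humanized animals descend from 1 founder, and do not say that each library is a separate animal, so the p-values measure the spread between these libraries, which may be technical in part.

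A microRNA is cut from a hairpin by Drosha and Dicer, and the 5′ end left by these cuts sets the seed, bases 2 to 8, with which an Argonaute protein finds its targets. A form that starts 1 base later or earlier therefore carries another seed. Such 5′ isomiRs are known for several microRNAs, among them miR-140-3p, miR-126-3p, miR-142-5p and miR-101a-3p. In liver miR-122-5p is the leading microRNA of hepatocytes, and miR-126 marks endothelium in most tissues.

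The sign of the shift is not explained in the labels, and it was read from the ids themselves. miR-16-1-5p and miR-16-2-5p have the same mature sequence but come from different hairpins. Their +1 forms had nearly the same mean signal in liver, 103.9 and 102.3, and in adipose, 401.9 and 398.0. Their −1 forms differed, with 0 and 21.6 in liver and 7.64 and 83.1 in adipose, and the base before the start differs between these 2 hairpins. A plus sign was therefore read as a start moved downstream, inside the mature sequence, and a minus sign as a start moved upstream into the hairpin. The −1 forms of miR-194-1-5p and miR-194-2-5p also differed, with 1.23 and 323.5 in liver. Their +1 forms (106.4 and 189.6) and unshifted ids (40299 and 73104) were unequal too, though by less. In adipose the +1 forms of miR-196a-1-5p and miR-196a-2-5p differed as well, with 71.2 and 147.7. For miR-26a-1-5p and miR-26a-2-5p the −1 forms were nearly equal, 1215 and 1220 in liver, and so were those of miR-30c-1-5p and miR-30c-2-5p, 21.6 and 22.4. The base before the start differs in both pairs too, so the ids of such copies cannot be told apart.

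RefSeq held a hairpin and mature sequence for 202 of the 280 forms. The pairs below were picked from the most abundant forms of either tissue, on which the values further on turn, with the seed in capitals, each first from the annotated start and then from the shifted start. The 3′ ends of the counted reads are not in the tables, so each sequence is printed to the annotated 3′ end, and the microRNA release behind the ids is not given in the sources used here, so RefSeq's start (GRCm38.p6) is assumed to be the file's.
miR-10a-5p unshifted: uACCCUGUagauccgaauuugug
miR-10a-5p +1: aCCCUGUAgauccgaauuugug
miR-10b-5p unshifted: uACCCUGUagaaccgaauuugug
miR-10b-5p +1: aCCCUGUAgaaccgaauuugug
miR-192-5p unshifted: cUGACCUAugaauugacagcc
miR-192-5p +1: uGACCUAUgaauugacagcc
miR-126-3p unshifted: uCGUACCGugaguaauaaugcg
miR-126-3p +1: cGUACCGUgaguaauaaugcg
miR-203-3p unshifted: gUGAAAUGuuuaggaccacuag
miR-203-3p +1: uGAAAUGUuuaggaccacuag
miR-140-3p unshifted: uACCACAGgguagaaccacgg
miR-140-3p +1: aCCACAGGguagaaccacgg
miR-142-5p unshifted: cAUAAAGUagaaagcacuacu
miR-142-5p −2: cCCAUAAAguagaaagcacuacu
miR-101a-3p unshifted: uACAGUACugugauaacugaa
miR-101a-3p −1: gUACAGUAcugugauaacugaa
miR-29a-3p unshifted: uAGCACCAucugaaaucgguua
miR-29a-3p −1: cUAGCACCaucugaaaucgguua

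These mature sequences lie on the plus strand of GRCm38.p6 at chr11:96317186-96317208 (miR-10a-5p), chr2:74726074-74726096 (miR-10b-5p), chr19:6264857-6264877 (miR-192-5p), chr2:26591402-26591423 (miR-126-3p), chr12:112130927-112130948 (miR-203-3p), chr8:107551288-107551308 (miR-140-3p) and chr11:87756867-87756887 (miR-142-5p), and on the minus strand at chr4:101346957-101346977 (miR-101a-3p) and chr6:31062673-31062694 (miR-29a-3p). The unshifted miR-10a-5p and miR-10b-5p share 1 seed, and their +1 forms share another. Of the 202 matched forms, 27 carried a shifted seed that is also the seed of another mouse microRNA in RefSeq. The seed of miR-101a-3p −1 and of miR-144-3p −1 is that of miR-101b-3p as RefSeq annotates it, that of miR-27b-3p +1 (uCACAGUGgcuaaguucugc) is the seed of miR-128-3p, and that of miR-93-5p +1 (aAAGUGCUguucgugcagguag) is shared by miR-291a-3p, miR-294-3p, miR-295-3p, miR-302b-3p and miR-302d-3p. The +1 forms of miR-30a-5p, miR-30c-5p and miR-30e-5p carry the seed of miR-30f. The unshifted start is U in 90 of the 202 matched forms and the shifted start is U in 28, while the shifted start is A in 74, C in 57 and G in 43.

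Together the forms held 3.44% of the signal of liver and 3.45% of that of adipose. The liver libraries held 5819451 to 16647090 listed reads and those of adipose 10772191 to 34352654, taking the common step of each library's values as 1 read, and forms under 10 reads were listed at 0. Unshifted markers matched the tissue labels. Hepatocyte miR-122-5p ranged from 4341240 to 8154120 in the liver libraries, and the summed signal of 6 mesenchyme and fat ids from 170639 to 817405 in adipose against 14203 to 157456 in liver. WT male adipose carried more hepatocyte and erythrocyte microRNA than the other adipose groups, with medians of 251638 and 333640 against at most 92284 and 88359 in the other groups (4 of 4 ids found in each list). Adipose WT female replicate 10 stood apart with a miR-34c-5p signal of 109625 against at most 4878 in the others, and a miR-200b-3p signal of 10999 against at most 2957. It was among the libraries left out in turn in the tests between genotypes and sexes. The described medians and ranges and the comparison of library name forms include it.

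Downstream shifts were the more frequent, and upstream shifts had the higher median ratio to their unshifted id. Downstream forms held 2.90% of all signal in liver and 2.58% in adipose, and upstream forms 0.538% and 0.875%. In liver 79 forms started downstream and 57 upstream, and in adipose 150 and 100. The ratio of a form to its unshifted id, called the start ratio here and given in percent of the unshifted signal, had a median of 2.92% for downstream and 22.7% for upstream forms in liver, and of 1.47% and 11.3% in adipose. Over all forms the median was 7.53% in liver and 3.22% in adipose, 2 lists of unequal make-up. Shifts of 1 base made up 51 of the downstream and 35 of the upstream forms in liver, and 98 and 71 in adipose. At +2 the median ratio was 0.577% in liver (13 forms) and 0.378% in adipose (30 forms), against 3.66% and 3.26% at +1. At −1 it was 8.29% and 10.0%. The liver upstream median also covers 10 forms of miR-5109 and miR-5115 shifted by 4 bases or more, with a median of 98.7%. Forms from 3p arms had higher median ratios than forms from 5p arms in both directions: in adipose 2.45% against 0.653% downstream and 8.75% against 2.84% upstream. Since a form enters only with a signal of 100 or more, arms of low unshifted signal enter only where their ratio is high, and these medians describe the set and not all microRNAs.

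**Figure D1:**
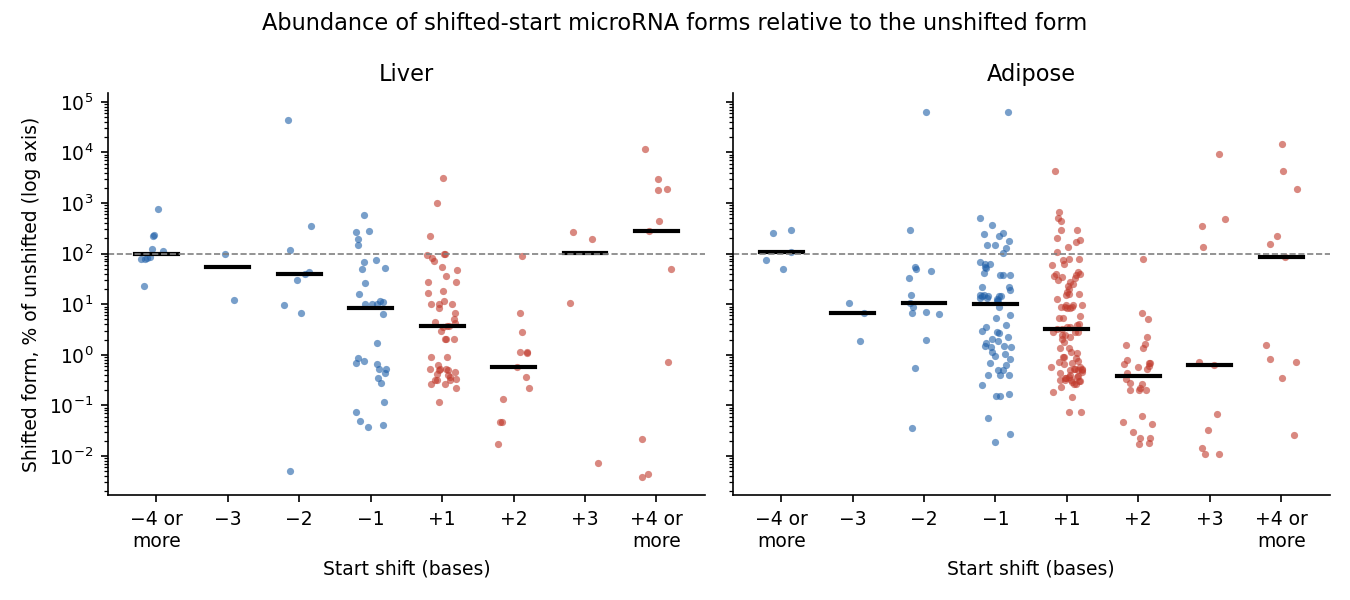
Start ratio of each form (mean shifted signal in percent of the mean unshifted signal, log axis) by direction and size of the shift, in liver and adipose; black bars are medians and the dashed line marks equality with the unshifted form. The median falls from +1 to +2 in both tissues, and 24 liver and 36 adipose forms lie above the line.

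In most arms the unshifted form still dominated. Its median share of an arm's signal was 95.2% over 128 arms in liver and 87.0% over 154 arms in adipose. A shifted form was the most abundant one in 19 and 34 of these arms. Start ratios above 100% were found for 24 forms in liver and 36 in adipose. Shifts of 4 bases or more made up 6 downstream and 5 upstream forms of these in liver, and 5 and 3 in adipose. In liver they came from miR-5105, miR-5109 and miR-5115, ids with many starts and no usable RefSeq entry. Another 4 forms in liver and 9 in adipose had no unshifted signal at all, among them miR-101c −1 with a mean signal of 210.5 in liver and 585.9 in adipose, miR-1843b-3p −1 with 160.2 and 366.0, and miR-181a-2-3p −3.

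The most abundant form in liver was miR-192-5p +1, from a microRNA rich in hepatocytes. Its mean signal was 196403 against 716202 for the unshifted id, a ratio of 27.4% that ranged from 22.5% to 38.6% over the 21 libraries. The +1 form of miR-122-5p came next with 48642, but this was 0.911% of its unshifted signal of 5336650. The forms +2 to +6, −1 and −2 of miR-122-5p also passed the limit in liver, each at 0.041% or less of the unshifted id.

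In adipose the most abundant forms were the +1 forms of the 2 miR-10 microRNAs, which are encoded within Hox gene clusters. For miR-10b-5p +1 the mean signal was 151540, and for miR-10a-5p +1 it was 83624. The start ratio of miR-10b-5p +1 was 14.4%, 14.8%, 14.8%, 15.3% and 16.3% in the WT female adipose libraries, 13.98%, 15.1%, 15.2% and 15.8% in WT males, and 14.2%, 14.5%, 14.6%, 14.6% and 16.2% in humanized males. In the 6 humanized females it ran from 14.5% over a median of 15.1% to 15.6%. All groups overlapped within this narrow band, while the signal of the form itself varied from 78490 to 288116. In liver the ratio was 16.7%, with 14.3% to 18.1% over the libraries. The ratio of miR-10a-5p +1 was higher than that of its relative in both tissues, 54.8% in liver (48.96% to 61.2%) and 42.97% in adipose (39.5% to 49.9%), although both share the unshifted and the shifted seed.

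Ratios varied less than levels in most forms. Over the liver forms with a ratio in every library the median coefficient of variation across libraries was 14.1% for the ratio and 28.97% for the signal, and the ratio varied less in 104 of 125 forms. In adipose these medians were 15.8% and 29.8%, and the ratio varied less in 204 of 234 forms. The coefficient of variation of the ratio was under 10% for 33 forms in liver and 47 in adipose, and over 50% for 7 and 11.

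For several microRNAs the annotated start was not the main one. miR-140-3p +1, from a hairpin best known in cartilage, reached 218% of the unshifted form in liver (177% to 278%) and 206% in adipose (136% to 319%). The −2 form of miR-142-5p, a microRNA of blood cells, had 356% in liver (225% to 534%) and 299% in adipose (198.5% to 555%), with the highest adipose value in WT female replicate 10. In liver all WT males (374% to 442%) lay above all WT females (225% to 357%), while humanized males (287% to 534%) and humanized females (278% to 417%) overlapped, and the sex difference did not pass the test (limma adjusted p = 0.098). The neighbouring −1 and −3 forms of miR-142-5p stood at 2.90% and 6.84% in adipose. On the other arm of the same hairpin miR-142-3p +3 reached 196.3% in liver and 346% in adipose, and miR-142-3p +1 149% and 167%. Other forms above their unshifted id in both tissues were miR-425-3p −1 (265% and 248.4%), miR-345-5p −1 (277% and 220%), miR-345-3p −1 (144.7% and 145.1%) and miR-1843b-5p −1 (197% and 257%).

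In liver miR-126-3p +1, of the endothelial microRNA miR-126, was close to its unshifted partner in level. The ratio was 93.7%, 98.4%, 102%, 108% and 116% in WT male liver and 85.8%, 92.8%, 94.0%, 96.7% and 100.8% in WT female liver. It lay between 50.6% and 65.8% in the 20 adipose libraries, below every liver library. The skin and epithelial microRNA miR-203-3p +1 had 82.2% in liver (67.2% to 107%) and 62.9% in adipose (52.4% to 73.5%), and these ranges overlap. miR-30a-3p +1 stood at 46.7% in liver.

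The highest ratios of all came from forms with almost no unshifted signal. In liver they were miR-5099 −2 with a mean signal of 2066 against 4.77 unshifted, 4 forms of miR-5105 (+5 to +8) against 16.1, and miR-592-5p +1 with 605 against 19.7. In adipose they were miR-28c −1 with 261 against 0.411, miR-5099 −2 with 1253 against 2.01, miR-5105 +7 and +8, miR-337-5p +3 with 1825 against 19.8, and miR-5124 +1 with 137 against 3.22. An unshifted signal near the limit of 10 reads makes these ratios imprecise. Ladders of many starts were seen for miR-5109, with 14 forms from −8 to +7, and for miR-5115, with 10 forms from −8 to +3. The ratio of miR-5115 −8 ran from 55.5% to 3162% between liver libraries, and its signal from 717 to 76173, the widest spread among the 11 forms whose ranges were computed this way.

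**Figure D2:**
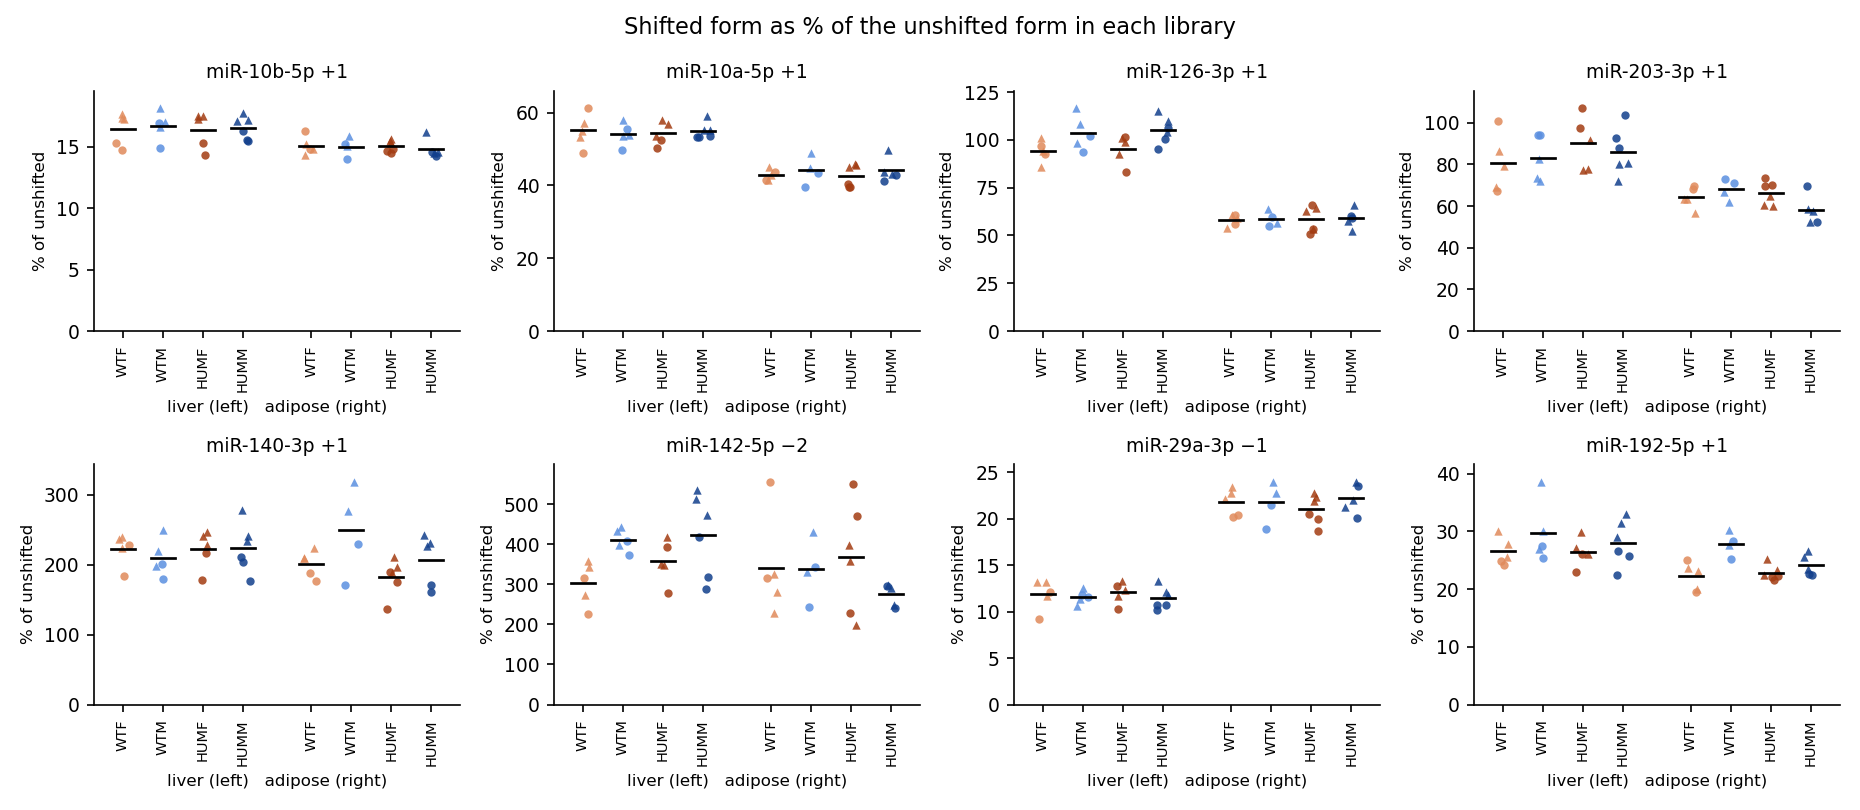
Start ratio in percent of the unshifted form in each library for 8 forms, by group, liver on the left and adipose on the right of each panel; circles and triangles are the 2 forms of library name, bars are group means. For miR-126-3p +1 and miR-29a-3p −1 the tissues do not overlap, and WT males lie wholly above WT females for miR-142-5p −2 in liver and for miR-192-5p +1 in adipose, while the humanized sexes overlap for both.

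Both tissues kept nearly the same order of start ratios. All but 57 of the 280 forms had a mean of at least 10 for the shifted and unshifted id in both tables. Across these forms the log2 ratios had a Pearson correlation of 0.99 between tissues, a description over forms that share arms, library method and sequence. The adipose ratio lay within 0.5 on the log2 scale of the liver ratio for 160 forms and within 1 for 204, with a median difference of −0.10. The tables were normalized separately, but a ratio within a library does not depend on that scaling. No test compared the tissues, since 18 name tags occur in both and may stand for the same animals.

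For 10 forms every adipose library lay above every liver library, and for 6 forms the reverse held. Higher in adipose were miR-29a-3p −1 (11.6% in liver and 21.4% in adipose), miR-101b-3p −1 (26.4% and 51.1%), miR-27b-3p −1 (0.767% and 1.502%), miR-28-3p +1 (2.61% and 5.42%), miR-1843-5p +1 (18.03% and 33.2%), miR-30a-5p +1 (0.906% and 1.34%), miR-30e-5p +1 (2.05% and 2.84%) and the −1 forms of miR-199a-3p and miR-199b-3p (3 ids of 1 sequence, 10.1% and 14.3%). Higher in liver were miR-324-3p +2 (213% and 77.3%), miR-320-3p +2 (2.87% and 1.55%) and +1 (8.23% and 5.36%), miR-10a-5p +2 (0.577% and 0.330%), miR-126-3p +1 (99.1% and 58.4%) and miR-191-5p +1 (3.56% and 2.79%). Because the ranges of these forms do not overlap, all 18 shared name tags went the same way by construction. The largest differences belonged to forms with a range that overlaps: miR-365-2-5p −1 (56.5% and 180%), miR-340-5p −1 (0.747% and 2.08%) and miR-22-3p +2 (0.014% and 0.030%) towards adipose, and miR-5109 −4 (227.98% and 50.5%), −7, −6, −5 and −8 towards liver. miR-199a-3p showed that the directions can part within 1 arm, since its +1 form was at 10.2% in liver and 8.78% in adipose while its −1 form was at 10.1% and 14.3%.

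**Figure D3:**
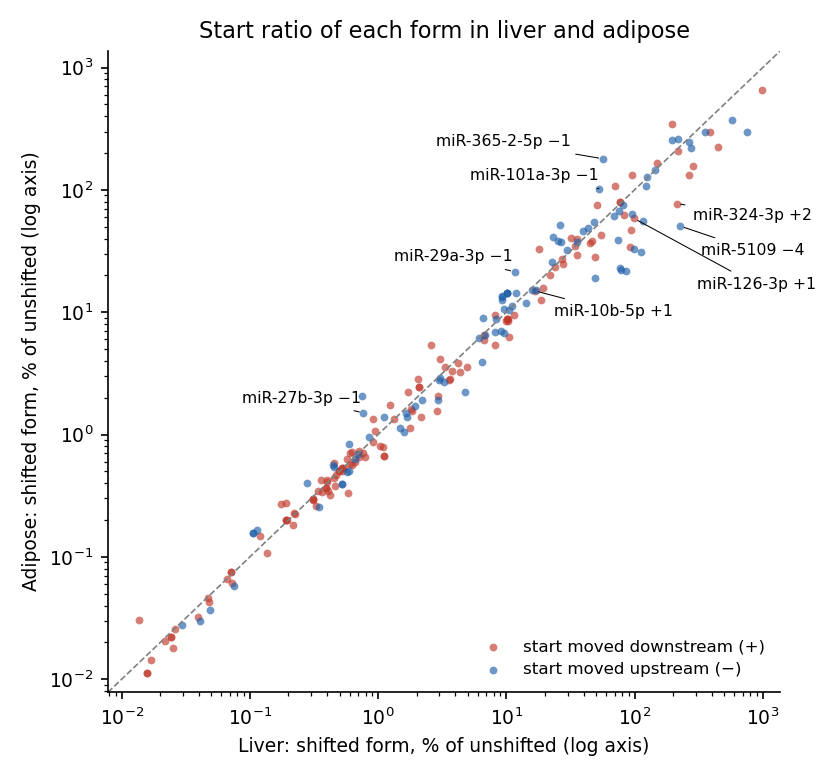
Start ratio in liver against adipose for the forms compared, on log axes; red points start downstream and blue points upstream of the annotated start, and the dashed line marks equal ratios. Most points lie along the line, with miR-29a-3p −1, miR-101a-3p −1 and miR-27b-3p −1 above it and miR-126-3p +1 and miR-324-3p +2 below it.

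Library names come in 2 forms, with the animal tag before or after the group, and every group holds both (9 tag-first and 12 group-first libraries in liver, 9 and 11 in adipose). The labels do not say what the forms stand for. In adipose the tag-first libraries were mostly deeper, with 16112000 to 34352700 listed reads against 10772200 to 17178700 in the group-first ones. In liver these ranges were 5819450 to 12977200 and 6622500 to 16647100. The part of depth in the differences between name forms was not tested. WT female tags found in both tissues carried a different form in each tissue. Ratios could be tested for all but 43 of the 280 forms in liver and all but 26 in adipose. With limma's moderated test on log2 ratios, 48 forms in liver and 85 in adipose differed between the name forms at an adjusted p under 0.05, against 16.9% and 29.1% of all shifted ids tested (415 and 693). This comparison was added after the values were seen. The ratio of miR-101a-3p −1 in liver was 31.2% to 47.4% in the tag-first libraries and 63.0% to 80.2% in the group-first libraries, with no overlap and a log2 difference of −0.83 (limma adjusted p = 1.03e-06). In adipose these ranges were 73.9% to 131.9% and 92.2% to 131.0%, which overlap (log2 difference −0.15, limma adjusted p = 0.34). Means of miR-101a-3p −1 were 40.7% and 100.6% in liver and adipose among tag-first libraries and 72.4% and 110% among group-first libraries, so the tissue difference depended on the name form in size. For miR-26a-1-5p −1 the direction turned: the tag-first libraries had the higher ratio in liver (0.569% ± 0.021 against 0.478% ± 0.009, SD, n = 9 and 12) and the lower one in adipose (0.318% ± 0.009 against 0.461% ± 0.020, n = 9 and 11). For miR-122-5p +1 the tag-first ratio was lower in both tissues, 0.788% against 1.00% in liver and 0.761% against 0.996% in adipose. The name form is a term in each model below.

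**Figure D4:**
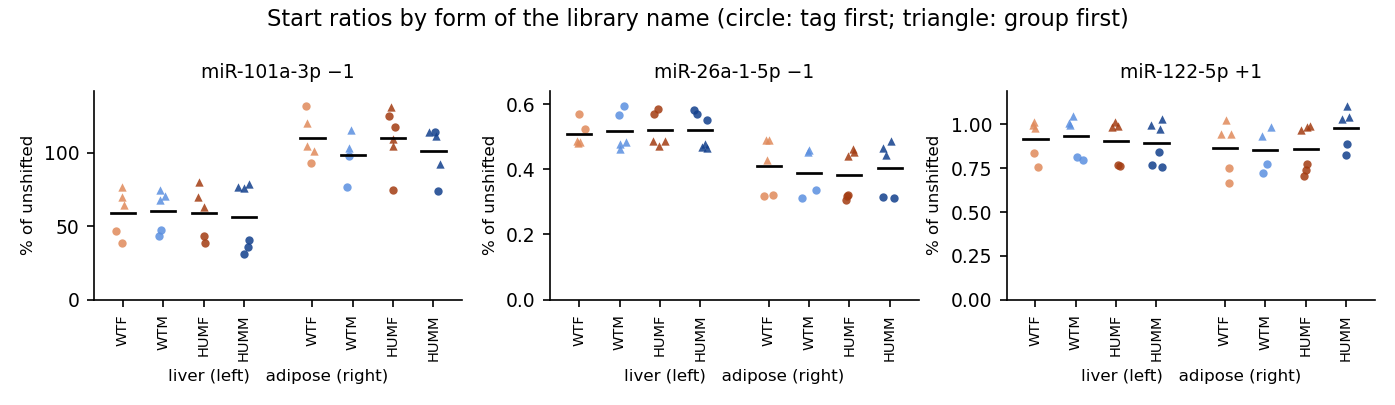
Start ratio in percent of the unshifted form for 3 forms that differed between library name forms, by group, liver left and adipose right; circles are tag-first and triangles group-first libraries, bars are group means. The circles lie below the triangles for miR-101a-3p −1 in liver and for miR-122-5p +1, and for miR-26a-1-5p −1 they lie above them in liver and below them in adipose.

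Genotype left no start ratio past the test. In males 0 forms in liver and 0 in adipose differed between humanized and WT (limma, against 0% of all shifted ids in both tissues; 14 and 30 forms at an unadjusted p under 0.05), and in females 0 and 0 (against 0% and 0%; 9 and 7 forms). The genotype difference did not pass for a difference between the sexes in any form either (0 in liver and 0 in adipose, against 0% and 0%; 7 and 15 forms at an unadjusted p under 0.05). The shares of all ids beside these counts are those at the adjusted p. Counts at an unadjusted p, here and below, stand without the share of all ids or genes at that limit and are not read as results. The 95% interval of the difference lay within 0.5 on the log2 scale for 120 forms in male liver, 116 in female liver, 165 in male adipose and 179 in female adipose, so for these forms larger differences lie outside the interval and for the others the data leave more room. For miR-10b-5p +1 the humanized minus WT difference on the log2 scale was 0.00 in male liver (interval −0.11 to 0.11) and −0.02 in male adipose (−0.15 to 0.10). For miR-126-3p +1 it was 0.03 (−0.14 to 0.19) and 0.00 (−0.20 to 0.20).

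The forms of smallest p in these comparisons did not pass adjustment. In male liver they were miR-151-5p +1 (log2 difference −0.53, limma adjusted p = 0.42), miR-30e-3p +1 and miR-127-3p −1. In female liver miR-592-5p +1 (1.04, limma adjusted p = 0.46), miR-122-5p +6 and miR-21-5p +4 came first, and in the test of the difference between the sexes miR-122-5p +6 (0.54, limma adjusted p = 0.72), miR-21-5p +4 and miR-10a-5p −1. For adipose they were miR-29a-3p +1 (0.29, limma adjusted p = 0.37), miR-5109 +7 and miR-5109 +1 in males, miR-5119 −1 (−0.41, limma adjusted p = 0.99), miR-106b-3p −2 and miR-361-5p −1 in females, and miR-29a-3p +1 (0.37, limma adjusted p = 0.73), miR-434-5p −1 and miR-148a-3p +1 for the difference between the sexes. The female liver value of miR-592-5p +1 rests on the pseudocount. Its unshifted id was at 0 in 4 of 5 WT and 5 of 5 humanized female livers.

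Between the sexes a few liver ratios differed. In males against females 9 forms were called, 4 higher and 5 lower in males, against 2.41% of all shifted ids tested (1.2% higher and 1.2% lower). The clearest was miR-30e-5p +1, of the broadly expressed miR-30 family. Its ratio was 2.11%, 2.16%, 2.19%, 2.26% and 2.36% in WT females and 1.72%, 1.82%, 1.86%, 2.10% and 2.14% in WT males. In humanized females it was 2.05%, 2.08%, 2.20%, 2.30% and 2.42%, and in the 6 humanized males it ran from 1.78% to 2.03%. The WT sexes overlap slightly and the humanized sexes do not. The log2 difference was −0.22 (SE 0.04, limma adjusted p = 0.012). Among tag-first libraries the females (2.16% to 2.42%) and the males (1.85% to 2.14%) did not overlap, nor did they among group-first libraries (2.05% to 2.36% and 1.72% to 1.87%). In adipose the difference was −0.04 (interval −0.12 to 0.03, limma adjusted p = 0.59).

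Higher in male liver were the +1 and +2 forms of miR-101b-3p, miR-378-3p +1 and miR-122-5p +2. miR-101b-3p +1 had means of 4.77% ± 1.27 in males and 3.87% ± 0.73 in females (SD, n = 11 and 10), with overlap over all libraries and none among group-first libraries (5.14% to 6.82% against 4.04% to 4.86%). miR-378-3p +1, from an intron of the metabolic coactivator gene Ppargc1b, had 4.50% ± 0.31 in males and 3.91% ± 0.26 in females (log2 difference 0.20, limma adjusted p = 0.040). Lower in male liver were miR-21-5p −1 (0.271% ± 0.032 against 0.328% ± 0.044), miR-802-5p +1 (4.33% ± 0.72 against 5.46% ± 0.36), miR-194-2-3p +1 (5.90% ± 1.54 against 7.48% ± 1.52) and miR-592-5p +1. The direction of miR-592-5p +1 is not settled: the unshifted id was at 0 in 9 of the 10 female livers, and the log2 difference turned from −0.85 to 1.64 with a pseudocount of 10 and 1.93 on the authors' rlog scale. The measured ratio was 2436% in the only female library that has one and had a median of 2862% in males. Several of these calls depended on single libraries: without any 1 library the number of called forms ran from 1 to 13, and it was 1 when WT male replicate 1, 3 or 4 was left out, and likewise for replicate 5 of the WT females and replicate 4 of either humanized sex. miR-30e-5p +1 passed in each of the 21 leave-one-out fits. With no term for the name form, or with no filter on low signal, 0 forms passed, and the difference of miR-30e-5p +1 stayed at −0.22 in both (limma adjusted p = 0.092 and 0.14).

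**Figure D5:**
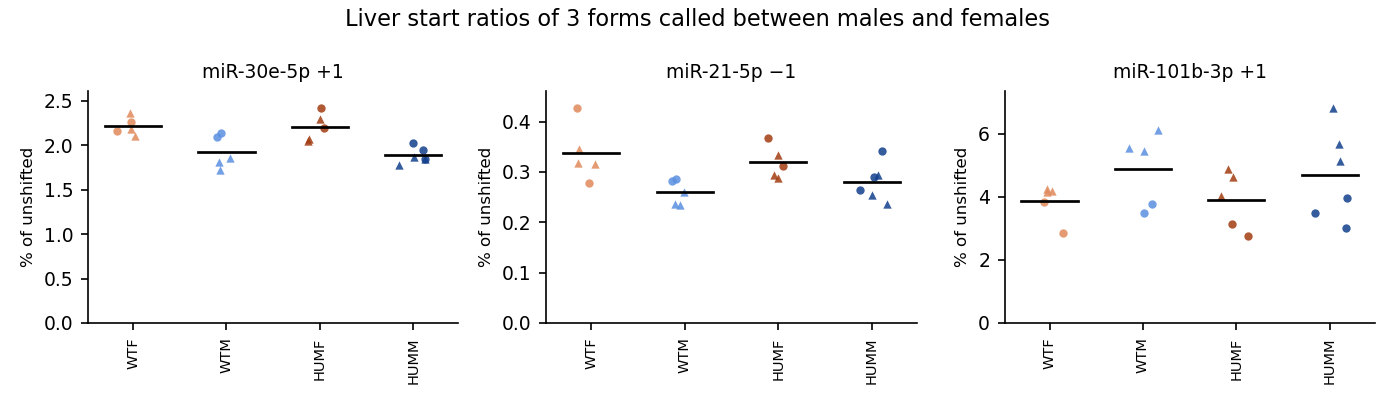
Liver start ratio in percent of the unshifted form for 3 forms called between males and females, by group; circles are tag-first and triangles group-first libraries, bars are group means. On average males lie lower than females for miR-30e-5p +1 and miR-21-5p −1 and higher for miR-101b-3p +1. The ranges of the sexes overlap in all 3 forms, least for miR-30e-5p +1.

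In adipose 1 ratio was called between the sexes, against 0.289% of all shifted ids (0.144% higher and 0.144% lower in males). It was miR-196a-2-5p +1, from a microRNA encoded in the Hoxc cluster. The log2 difference turned from −1.25 to 1.74 with a pseudocount of 10 and 1.92 on the authors' rlog scale, and the count was 0 on leaving out most single libraries. The form had a signal of 258.7 ± 27.0 in WT females and 275.3 ± 40.3 in humanized females (SD, n = 5 and 6), and it was listed at 0 in 8 of 9 male libraries. The unshifted id fell with it, from 34420 ± 2686 and 37202 ± 6913 in females to 472 ± 104 in WT males and 396 ± 222.9 in humanized males. The form entered the set through the females, so its level difference is tied to that choice. The ratio stood at 0.751% ± 0.040 (WT females) and 0.745% ± 0.054 (humanized females).

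Levels of the forms were called between the sexes at about the share of all ids. In liver 22 of 250 forms tested were called on log2 of the signal plus 1, 10 higher and 12 lower in males, against 9.2% of all ids tested (5.14% higher and 4.06% lower). miR-592-5p +1 was listed above 0 in every library, with means of 1385 and 811 in WT and humanized males and 98.6 and 83.9 in females (log2 difference 3.89, limma adjusted p = 1.57e-06). Forms of miR-21-5p, a microRNA induced in injury and proliferation, were higher in males. The +1 form had 1359 ± 749 in WT males and 579 ± 112 in WT females. In humanized males it had 838 ± 349 and in humanized females 553 ± 191. Its log2 difference of 0.85, like every sex difference here, averages both genotypes. The +2, +4 and −1 forms also rose. The unshifted miR-21-5p had means of 597734 and 270415 in WT males and females, and of 385747 and 252239 in humanized ones. miR-125b-1-5p +1, miR-125b-2-5p +1, miR-23b-3p +1, miR-409-3p −1 and miR-5099 −2 were the others higher in males. Of these miR-409-3p −1 was listed at 0 in 5 of 5 WT and 4 of 5 humanized female livers. Males had 48.5 ± 48.5 (WT, 1 of 5 at 0) and 53.8 ± 62.4 (humanized, 2 of 6 at 0). It reached the mean of 10 for a test through the males, and the size of its log2 difference depends on the pseudocount. Lower in males were miR-674-5p +1 (log2 difference −1.01), miR-802-5p +1 (−1.35), miR-152-3p +2 (−0.51), miR-29a-3p −1 (−0.23), miR-345-3p −1 (−0.50), miR-126-3p −1 (−0.60) and 6 more. On leaving out single libraries the count of 22 ranged from 11 (humanized female replicate 4) to 37 (WT female replicate 2), and it was 12 to 14 without humanized female replicate 1 or 3, humanized male replicate 5 or 6, WT female replicate 3 or 4, or WT male replicate 5. Levels did not pass the test by genotype in liver for any form (0 of 250 in males and 0 of 250 in females, limma, against 0% and 0% of all ids; 15 and 8 forms at an unadjusted p under 0.05).

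In adipose 29 of 271 forms were called between the sexes by level, 16 higher and 13 lower in males, against 10.0% of all ids tested (4.31% higher and 5.7% lower). Higher in males were forms of the red cell microRNAs miR-144 and miR-486. miR-144-3p −1 had 1820 ± 1406 in WT males, 612 ± 166 in humanized males, 316 ± 191.6 in WT females and 274 ± 128 in humanized females (log2 difference 1.78, limma adjusted p = 0.0016), and its ratio to the unshifted id was 8.81% ± 1.51 in WT males and 7.26% ± 1.14 in WT females. The +2 forms of miR-486-5p and miR-3107-5p, whose values were nearly the same, and miR-16 +1, miR-25-3p +1 and miR-122-5p +1 also passed as higher in males. For several of them WT males stood above the other 3 groups. The means of miR-122-5p +1 were 2532 ± 1922 in WT males, 758 ± 334 in humanized males, 701 ± 469 in WT females and 540 ± 178 in humanized females. Those of miR-486-5p +2 were 1295 ± 703, 396 ± 132, 349 ± 152 and 244 ± 95.2 in the same order. The median sum of the erythrocyte list was 333640 in WT male adipose and 63261 to 88359 in the other groups, and that of the hepatocyte list 251638 and 83572 to 92284. The lists hold the unshifted ids of miR-144, miR-486-5p and miR-122-5p, so they do not stand apart from these forms. The part of either list in these level differences was not tested. Lower in males were 4 forms of miR-10b-5p and 2 of miR-10b-3p among others. For miR-10b-5p +1 the females had 175576 ± 36953 (WT) and 185824 ± 60533 (humanized), and the males 132486 ± 28457 (WT) and 101607 ± 28920 (humanized) (log2 difference −0.63, limma adjusted p = 0.0063), while its ratio stayed between 14.8% and 15.1% in the group means.

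Humanized male adipose had lower levels than WT male adipose in 3 of 271 forms and higher levels in 0, against 0.616% of all ids (0.077% higher and 0.539% lower). They were miR-320-3p +1 (1032 ± 215 against 1900 ± 560, log2 difference −0.89), miR-486-5p +2 (396 ± 132 against 1295 ± 703, −1.61) and miR-3107-5p +2 (360 ± 118 against 1191 ± 636, −1.63), each with a limma adjusted p of 0.049. The unshifted miR-486-5p and miR-3107-5p had nearly equal means in WT males, 202419 and 202162, so their +2 forms may count 1 signal under 2 ids. The ratios of the 3 forms were nearly level between these groups, 5.204% and 5.261%, 0.662% and 0.637%, and 0.604% and 0.587%. In these groups the median sum of the erythrocyte list, which holds miR-486-5p, was 333640 in WT and 88359 in humanized males, and that of the hepatocyte list 251638 and 92284, and their part in the 3 differences was not tested. The unshifted miR-486-5p ranged from 69218 to 336754 in WT male adipose against 43081 to 84187 in humanized males. The calls were lost, with a count of 0, with the replicate number as a block and on leaving out any of 13 single libraries. These were WT male replicates 6, 9 and 11, humanized male replicates 7, 8, 9, 10 and 13, WT female replicates 6, 10 and 11 and humanized female replicates 8 and 9. Without WT male replicate 12 the count was 7. In females 0 of 271 forms differed by genotype (limma, against 0%; 4 at an unadjusted p under 0.05).

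Genes of the microRNA pathway were measured in the mRNA libraries of the same tissues, with 3 libraries per group but only 2 for WT male adipose. Of 31 listed genes, from the nuclear cutter Drosha and its partner Dgcr8 over Dicer1 to the Argonaute proteins and the exonucleases, 29 could be tested in each tissue. By genotype 0 of 29 passed the test in male and female liver and adipose (limma). In simulated male data the test recovered 0% (liver) and 2% (adipose) of changes of 0.5 on the log2 scale, so an absence of change is not shown. Of all genes 0.0329% were called in male liver (0.0132% higher, 0.0198% lower), 0.0198% in female liver (0.00659% higher, 0.0132% lower), 0.0172% in male adipose (0% higher, 0.0172% lower) and 0.0172% in female adipose (0.00575% higher, 0.0115% lower). At an unadjusted p under 0.05 the listed genes numbered 1, 1, 2 and 1. In liver 3 of 29 differed between the sexes, 2 higher and 1 lower in males, against 9.59% of all genes (4.12% higher and 5.47% lower). Their log2 differences average both genotypes, while the means given are those of the WT groups only. Ilf2, a double-stranded RNA-binding partner, had 1289 ± 177 in WT males and 927 ± 105 in WT females (log2 difference 0.40, limma adjusted p = 0.036). Tarbp2, which encodes the Dicer partner TRBP, had 1745 ± 146 and 1264 ± 136 (0.38, limma adjusted p = 0.032), and Tut4, a terminal uridylyl transferase, 833 ± 228.7 and 1731 ± 329 (−0.96, limma adjusted p = 0.024). Without humanized female mRNA replicate 2 or 3 or WT female replicate 3 the count was 0, and it was 1 without WT male replicate 1 or 2 or humanized male replicate 2 or 3. In adipose 0 of 29 differed between the sexes (limma, 0 at an unadjusted p under 0.05), against 0.42% of all genes (0.155% higher and 0.264% lower). These genes were measured in other libraries than the start ratios, and no relation between them was tested.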

How the data were processed

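The deposited tables hold small RNA and mRNA signal that the authors normalized with DESeq2, per the submitters' processing notes, which also name STAR, Salmon, limma and the mm9 build without versions or roles. Per the labels, a CleanTag kit was used for the small RNA libraries. The authors also deposited log2 (rlog) small RNA values corrected for a batch they do not name here, used as an alternative. Every listed small RNA value was a whole multiple of 1 step per library (within 0.01), the smallest being 10 steps, so forms under 10 reads are 0 and their absence is not shown.

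The start ratio was log2(shifted + 1) minus log2(unshifted + 1), tested with limma (version 3.58.1, R version 4.3.3, moderated with a trend) over all shifted ids with shifted and unshifted means of at least 10, with the 4 groups and the form of the library name as terms. Levels used log2(signal + 1), also means of at least 10. Differences between the sexes average the WT and the humanized difference. Calls were at a Benjamini-Hochberg adjusted p under 0.05 over all ids, and fold changes on this scale understate changes of low forms. Percentages in the text are ratios of signals without pseudocount. In liver the mRNA models held the preparation, ribosomal depletion or polyA enrichment, which was not balanced between the genotypes. Tests were checked on simulated data for humanized against WT males: of ratios moved by 0.5 on the log2 scale 43.5% were recovered in liver and 39% in adipose, and of those moved by 1, 60.9% and 66%. For levels these shares were 19% and 10%, and 57% and 57%, and for mRNA 0% and 2%, and 22% and 26%, so smaller changes of levels and genes would mostly be missed. Same-numbered female adipose mRNA libraries deviated together (3 pairs, correlations 0.17 to 0.19), and a replicate block left the count of processing genes there at 0. Named forms follow a rule on level, ratio, tissue difference and smallest p. The members and lists were chosen with earlier results of these data known.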

Additional observations from a re-analysis of the deposited data

Results flagged for a closer look

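Within the 96 groups of libraries checked for 12 forms, 4 start ratios stood apart from the others of their group by Dixon's test at the 95% level, which marks about 1 in 20 groups by chance. In humanized male adipose replicate 7 had a miR-10b-5p +1 ratio of 16.2%, against 14.2% to 14.6% in the others. Humanized male liver replicate 5 had a miR-10a-5p +1 ratio of 58.97%, against 53.2% to 55.3%. The miR-140-3p +1 ratio of WT female liver replicate 1 was 183.5%, against 224% to 239.96%. In WT male adipose replicate 12 had a miR-101b-3p −1 ratio of 63.3%, against 49.1% to 50.6%.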

How the results depend on the processing

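Genotype counts of called ratios stayed at 0 in both sexes and tissues under each alternative run. The count of called liver ratios between the sexes (9) was 0 with no filter, with no term for the name form, with the replicate number as a block and among tag-first libraries, 5 among group-first libraries, and 1 to 13 without single libraries. The adipose count (1) was 0 with the replicate block and among group-first libraries, 15 on the authors' rlog scale, and 0 to 2 without single libraries. Liver levels between the sexes (22) gave 13 with no filter, 5 with no name form, 7 with the replicate block, 0 tag first, 46 group first, 8 on the rlog scale, and 11 to 37 without single libraries. Adipose levels between the sexes (29) gave 19 with no name form, 19 with the replicate block, 1 tag first, 3 group first, and 22 to 39 without single libraries. The 3 adipose levels called between humanized and WT males became 5 with a pseudocount of 10, 8 on the rlog scale, 0 with no filter, with no name form, with the replicate block, in either name form alone and after rescaling to equal sums, and 0 to 7 without single libraries. Liver processing genes called between the sexes (3 of 29) numbered 5 of 29 with a pseudocount of 10, 5 of 29 with no term for the preparation, and 0 to 4 without single libraries. The cause of these changes was not tested.

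Of 37 called results followed one by one (all called ratios, and up to 6 levels in each direction), 35 kept their direction in every alternative run. The liver sex difference of miR-592-5p +1 reversed to 1.64 with a pseudocount of 10 and 1.93 on the rlog scale, and the adipose one of miR-196a-2-5p +1 to 1.74 and 1.92. Counting numbered copies once, added after seeing the data, moved the median ratio from 7.53% to 9.66% in liver and from 3.22% to 3.73% in adipose. In the small RNA data replicate numbers did not meet the criterion for pairing, a correlation over 0.1 in every pair, with 1 exception. Correlations of same-numbered liver ratios between genotypes ran from −0.23 to 0.28, and those of adipose levels in females from 0.05 to 0.28. The exception was adipose levels in males, where the only shared number gave 0.14, against −0.02 for adipose ratios. In liver 4 of 20 and in adipose 1 of 10 libraries correlated best with their own number. The planned edgeR and DESeq2 tests on recovered reads were not run. Depth limits forms under 10 reads, listed at 0.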
